A study of Mus musculus with 6 samples.

Results

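The genes described here make, inactivate, sense or answer to oxysterols, the hydroxylated forms of cholesterol. They are Cyp7b1, Ch25h, Cyp27a1, Hsd3b7, Gpr183, Nr1h2, Nr1h3, Abca1, Abcg1 and Apoe, 10 of the 23407 genes in the deposited table, matched by gene symbol. The set was chosen by the measured values of Cyp7b1, which were strongly lower in the libraries labelled TSP2KO. The other 9 genes were added for their roles in the same pathway. Bulk RNA sequencing covered 6 libraries of primary mouse dermal fibroblasts, 3 labelled WT and 3 labelled TSP2KO, the latter lacking thrombospondin-2, a secreted glycoprotein of the matrix encoded by Thbs2. All 6 came from the back skin of mice aged 12 weeks, digested with trypsin and collagenase, grown for 3 to 5 days in medium with serum and collected at passage 1, with libraries made by a stranded mRNA kit. The labels name no strain, deletion allele or treatment, and leave unsaid whether each library is another animal. A p-value here therefore reflects library-to-library spread alone, part of which may be technical.

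Oxysterols arise when enzymes add a hydroxyl group to the side chain or ring of cholesterol. Ch25h and Cyp27a1 add it to the side chain, while Cyp7b1 and then Hsd3b7 modify the ring and lead the molecule towards bile acids or inactivation. Cells read oxysterols through the liver X receptors (LXR), nuclear receptors encoded by Nr1h3 (LXR alpha) and Nr1h2 (LXR beta), which pair with retinoid X receptors and switch on genes that export cholesterol, among them Abca1, Abcg1 and Apoe. A dihydroxylated oxysterol made with the help of Ch25h and Cyp7b1, and broken down by Hsd3b7, is the ligand of Gpr183, a receptor that guides migrating immune cells.

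The values are normalised counts as deposited by the authors. Depth, estimated from what 1 read is worth in each library, lay between 14776502 and 34599855 reads per library. Thbs2 was high in WT 1 and WT 2, at 122061 and 116720 normalised counts, and low in the TSP2KO libraries, at 5177, 6635 and 4891. With 8841, the library labelled WT 3 disagreed with its label, and the difference of each gene tested of the 10 is given with it and without it. As defining markers of the labelled cell type, all 12 fibroblast genes looked for were in the table. Their summed level was 246243 to 520623 in WT and 215825 to 397082 in TSP2KO. By limma 0 of the 12 passed the threshold, and limma-voom called 0. At an unadjusted p under 0.05 there were 3, all lower, where 6.09% of all genes tested were lower. Their median log2 fold change was -0.47, with 9 of the 12 lower and 3 higher. Without the library labelled WT 3 it was -0.90, and 1, Pdgfra, passed, where 2.75% of all genes passed lower. Dcn, a matrix proteoglycan of fibroblasts named after its values were seen, lay at 38394 to 55417 normalised counts in WT and 2368 to 12200 in TSP2KO. Col6a1, 1 of the 3 higher genes and likewise named afterwards, lay at 21010 to 28424 in WT and 25779 to 40961 in TSP2KO. Macrophage markers differed between the groups: all 16 tested of 19 were lower in TSP2KO, where 51.5% of all genes tested were. By limma 2 passed the threshold, where 0.0612% of all genes did, and limma-voom called 0. Without the library labelled WT 3, 13 passed, all lower, where 2.75% of all genes passed lower. Their summed level was 3740 to 6589 in WT and 794 to 963 in TSP2KO, and Aif1 and Fcgr1 were listed at 0 in all 3 TSP2KO libraries. Keratinocyte markers were high in the library labelled WT 3, TSP2KO 1 and TSP2KO 2, with summed levels of 39394, 13766 and 12143, against 549 to 1566 in the other 3 libraries. Summed levels in WT and TSP2KO were 645 to 5689 and 607 to 2469 for endothelial markers, 338 to 1406 and 263 to 705 for adipocyte markers, 672 to 1577 and 212 to 884 for melanocyte markers, and 16.9 to 45.5 and 9.79 to 16.1 for dendritic cell markers. Of the melanocyte sums, Mitf gave 592 and 660 in WT 1 and WT 2, and 155 to 294 in TSP2KO. Dct, another melanocyte marker, named after its values were seen, lay at 4.12 and 3.53 in WT 1 and WT 2. It lay at 283, 138 and 43.1 in the library labelled WT 3, TSP2KO 1 and TSP2KO 2, and at 0.890 in TSP2KO 3. Tyrp1 and Pmel were likewise highest in the library labelled WT 3, then in TSP2KO 1 and TSP2KO 2. The part of these cell types in the results below was not tested. In bulk RNA, fewer cells of a type and less RNA per cell cannot be told apart.

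A DNA element of the kind LXR binds is shown here in the promoter of Abca1. The form that matched was written after the known element of this gene. Its match in Abca1 therefore follows from the choice of form and is no finding. Abcg1, also an LXR target among the 10 genes, had no promoter to search. RefSeq's promoter table (GRCm38.p6), which covers 250 bases before to 50 bases after each gene's start, held 8 of the 10 genes: Ch25h, Cyp27a1, Hsd3b7, Gpr183, Nr1h2, Nr1h3, Abca1 and Apoe. LXR binds a pair of hexamers that point the same way. The exact consensus pair, AGGTCA followed by any 4 bases and AGGTCA again, searched on both strands, was found in 5 of 32851 promoters (0.0152%), none of them of these 8 genes. The form written after the known Abca1 element, GGTTACT followed by any 2 bases and CGGTCA, was found on either strand in 3 promoters (0.00913%), those of Abca1, Srebf1 and Fasn. A match is a description of the letters and not of a bound site. The 250 bases before the start of Abca1 (chr4:53159896-53160145, minus strand) read as follows, with the match in capitals, at bases -67 to -53 counted from the start.
Abca1 upstream: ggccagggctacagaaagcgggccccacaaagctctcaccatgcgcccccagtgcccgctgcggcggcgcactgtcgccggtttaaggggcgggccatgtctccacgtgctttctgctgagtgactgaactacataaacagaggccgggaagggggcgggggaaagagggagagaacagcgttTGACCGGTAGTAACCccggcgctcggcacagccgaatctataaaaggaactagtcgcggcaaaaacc
Read on the plus strand, the match in each of the 3 promoters, with its flanking bases in lower case, is set side by side below, at chr4:53159944-53159966, chr11:60210635-60210657 and chr11:120824754-120824776.
Abca1 element: ccggGGTTACTACCGGTCAaacg
Srebf1 element: ctggGGTTACTGGCGGTCActgt
Fasn element: gcggGGTTACTACCGGTCAtcgt

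Cyp7b1 (chromosome 3, 18071950 to 18243338, minus strand), the ring hydroxylase that clears side-chain oxysterols, had 885, 496 and 344 normalised counts in WT 1, WT 2 and the library labelled WT 3. It had 46.0, 41.4 and 44.5 in TSP2KO 1, TSP2KO 2 and TSP2KO 3. Every WT library lay above every TSP2KO library, and the lowest was the one labelled WT 3, at 7.82 times the TSP2KO mean. The spread was uneven: the coefficient of variation was 48.5% in WT and 5.30% in TSP2KO. The WT mean was 575 ± 279 and the TSP2KO mean 44.0 ± 2.33 (SD, n = 3 each), and the log2 fold change was -3.57 (SE 0.35), which is 11.9-fold lower. Without the library labelled WT 3 the log2 fold change was -3.88 (SE 0.29). These values chose the gene set and are given as a description without a test. Of the 14707 genes tested, 39 had a larger log2 fold change in either direction. Macrophage markers, relative to the mean log2 level of WT 1 and WT 2, averaged -0.11 for the library labelled WT 3, while TSP2KO 1, 2 and 3 stood at -2.63, -2.47 and -2.55, against -0.94 and -3.82, -3.97 and -3.87 for Cyp7b1. Their part in the Cyp7b1 difference was not tested.

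**Figure D1:**
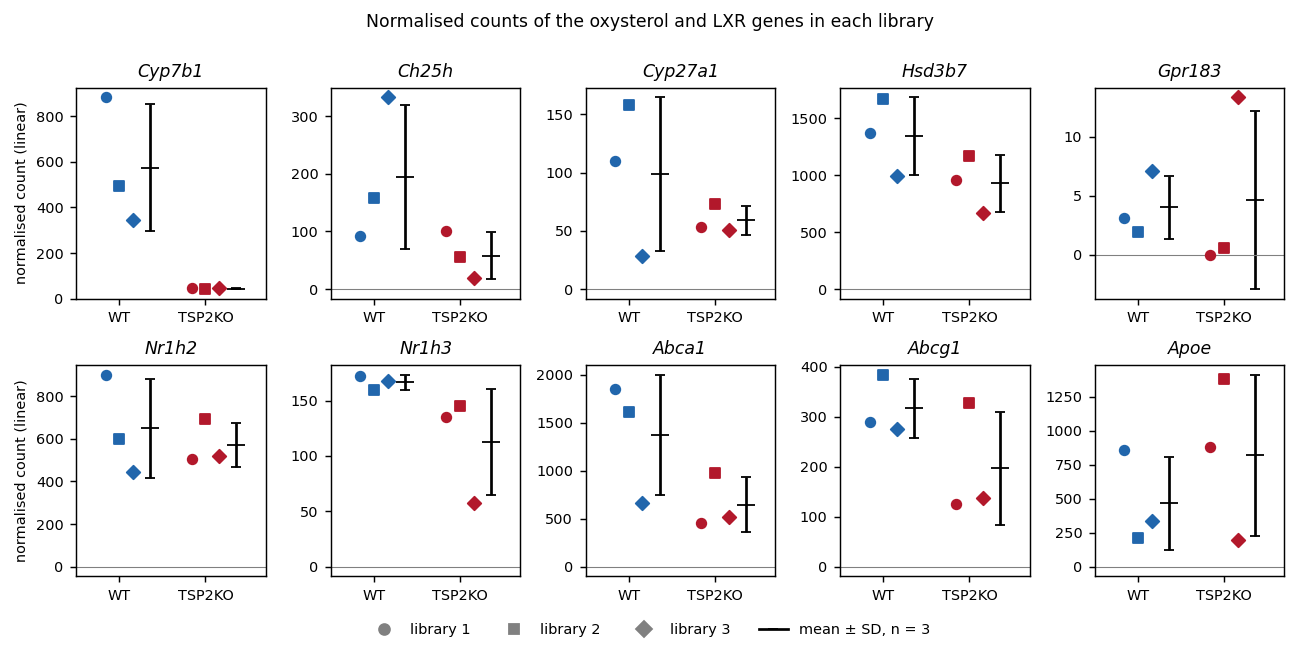
Normalised counts (linear axis) of the 10 genes in each library, WT in blue and TSP2KO in red, with the marker shape giving the library number and the black bar the mean ± SD (n = 3). Cyp7b1 lies between 344 and 885 in WT and between 41.4 and 46.0 in TSP2KO, while the groups overlap for 8 of the 10 genes.

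None of the other 8 genes tested passed the test of the difference between the groups. By limma's moderated test with Benjamini-Hochberg adjustment over all 14707 genes, 0 of these 8 passed an adjusted p of 0.05, with adjusted p between 0.440 and 0.918. At an unadjusted p under 0.05 there was 1 of the 8, Ch25h, where 9.75% of all genes tested lay under it (6.09% lower and 3.66% higher), and limma-voom called 0. Over all genes, 9 passed, 0.0612% of those tested. Leaving out the library labelled WT 3, the count was again 0 of 8, although 5.17% of all genes then passed (2.75% lower and 2.43% higher). Leaving Cyp7b1 aside, 7 of the 8 had a lower mean log2 level in TSP2KO and 1, Apoe, a higher one. Their median log2 fold change was -0.60, against -0.01 over all genes tested, of which 51.5% were lower. Without the library labelled WT 3 these medians were -0.82 and -0.03. Of the 8, 1 had groups that did not overlap, Nr1h3, a share near that of all genes tested, at 14.2% (8.27% lower and 5.9% higher in TSP2KO). Gpr183, with a mean under 10 normalised counts, was not tested.

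**Figure D2:**
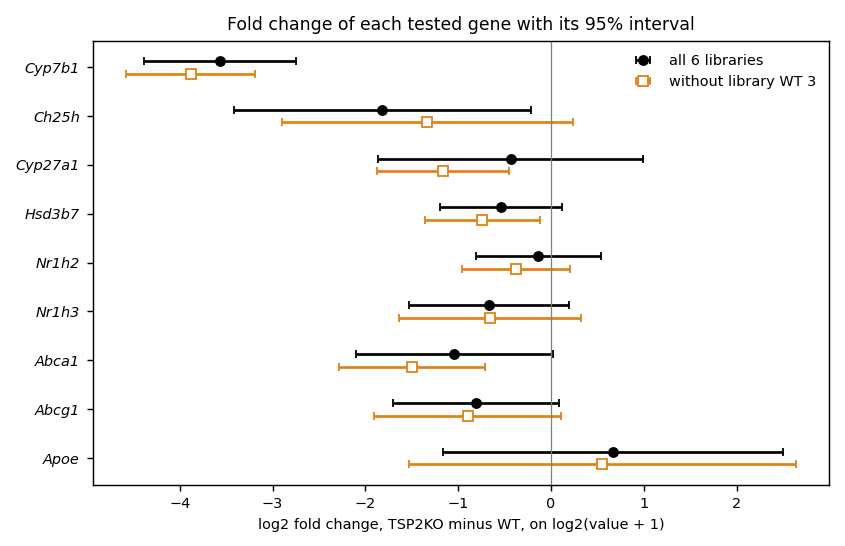
Log2 fold change of TSP2KO against WT for the 9 genes tested, with its 95% interval from limma, from all 6 libraries (black) and without the library labelled WT 3 (orange). The interval of Cyp7b1 runs from -4.39 to -2.75, and those of Cyp27a1, Hsd3b7 and Abca1 lie wholly below 0 only without the library labelled WT 3. That of Ch25h lies below 0 with all 6 libraries (-3.42 to -0.22) and crosses it without that library (-2.90 to 0.23). The intervals are not adjusted for the number of genes tested.

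Among the enzymes, Ch25h and Cyp7b1 ran in opposite order across the 3 WT libraries, though both had lower means in TSP2KO. Ch25h (chromosome 19, 34473778 to 34475164, minus strand), a gene of a single exon whose enzyme hydroxylates the cholesterol side chain, had 92.7, 157 and 333 normalised counts in WT (the last from the library labelled WT 3), against 99.96, 55.9 and 18.7 in the TSP2KO libraries. The library labelled WT 3 was the highest of all 6 for Ch25h and the lowest of WT for Cyp7b1, and TSP2KO 1 lay above WT 1. The log2 fold change was -1.82 (SE 0.68, 95% interval -3.42 to -0.22, limma adjusted p = 0.440), and it was -1.33 without the library labelled WT 3. In TSP2KO 3 the Ch25h value rested on 21 reads. An antisense locus, Gm26902, shares 159 bases of exon with Ch25h and lay at 0.890 to 12.2 normalised counts. Whether reads were counted by strand is not given in the sources used here.

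Ch25h is also known as a gene induced by interferon, and interferon response genes were looked at beside it. All 22 tested, of 26, had a lower mean log2 level in TSP2KO, and their median fold change was -2.08 in log2. By limma 0 of them passed, 19 had an unadjusted p under 0.05, all lower (6.09% of all genes tested were lower at that p), and limma-voom called 0. Without the library labelled WT 3, 7 passed, all lower, where 2.75% of all genes did. Their mean log2 level, relative to WT 1 and WT 2, stood at -1.42 for the library labelled WT 3, against -2.97, -1.38 and -3.23 for TSP2KO 1 to 3. The part of interferon in the Ch25h values was not tested.

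Cyp27a1 (chromosome 1, 74713574 to 74737892, plus strand), the mitochondrial sterol hydroxylase, had 110.2, 158 and 28.2 normalised counts in WT (the last from the library labelled WT 3), against 53.4, 73.3 and 50.8 in TSP2KO. The library labelled WT 3 was the lowest of all 6, below each TSP2KO library. Its log2 fold change came to -0.44 (SE 0.61, limma adjusted p = 0.858), and -1.17 (SE 0.30, limma adjusted p = 0.0719) without that library. Without WT 2 its sign turned, to 0.06.

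Hsd3b7 (chromosome 7, 127800604 to 127803802, plus strand), the dehydrogenase that follows Cyp7b1, had 1374, 1669 and 991 normalised counts in WT and 959, 1165 and 667 in TSP2KO, in library order. TSP2KO 2 lay above the library labelled WT 3. TSP2KO differed from WT by -0.54 on the log2 scale (SE 0.28, limma adjusted p = 0.620), and -0.74 without the library labelled WT 3. Of its exon length, 62.4% is shared with the antisense locus 9430064I24Rik, which lay at 48.2 to 126 normalised counts. A further locus on the same strand, Gm49388, shares 62.0% of it and is not among the genes analysed here, so the Hsd3b7 value is uncertain.

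Per kilobase of exon, the balance between Cyp7b1 and Ch25h overlapped between the groups. The ratio of Cyp7b1 to Ch25h was 6.11, 2.02 and 0.661 in WT 1, WT 2 and the library labelled WT 3. It was 0.294, 0.474 and 1.52 in TSP2KO 1, TSP2KO 2 and TSP2KO 3, so TSP2KO 3 lay above the library labelled WT 3.

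Of the sensors, Gpr183 (chromosome 14, 121952551 to 121965195, minus strand) was too low to test. WT 1, WT 2 and the library labelled WT 3 held 6, 5 and 11 reads of it, against 0, 1 and 15 reads in TSP2KO 1, TSP2KO 2 and TSP2KO 3. In TSP2KO 1 the count of 0 has a 95% Poisson interval of 0 to 3.69 reads. No fold change is given. The T cell receptor gene Trac had 5.75, 20.1 and 49.9 normalised counts in the TSP2KO libraries and 1.92 to 4.64 in WT. Both genes were highest in TSP2KO 3, but the match rests on that library. TSP2KO 2, with Trac at 20.1, held 1 read of Gpr183, and the library labelled WT 3, with Trac at 1.92, held 11. Of the 8 lymphocyte markers looked for, only Trac and Ms4a1 were in the table. Ms4a1 lay at 0 to 0.641 in WT and at 0.575, 2.24 and 0.890 in TSP2KO 1, TSP2KO 2 and TSP2KO 3. The part of lymphocyte RNA in the Gpr183 value was not tested.

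Nr1h2 (chromosome 7, 44549616 to 44553951, minus strand), encoding LXR beta, the broadly expressed form, had 901, 599.8 and 445 normalised counts in WT and 503, 691 and 519 in TSP2KO, in library order. The groups overlapped throughout, and the log2 fold change was -0.14 (SE 0.29, limma adjusted p = 0.918). Its 95% interval of -0.81 to 0.53 leaves room for a change in either direction, and without WT 1 the sign turned, to 0.13. Without the library labelled WT 3 it was -0.38.

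Nr1h3 (chromosome 2, 91184061 to 91202834, minus strand), encoding LXR alpha, typical of liver, fat and macrophages, had 173, 159 and 168 normalised counts in WT and 135, 145 and 57.9 in TSP2KO. Every TSP2KO library lay below every WT library, though TSP2KO 1 and TSP2KO 2 lay close to WT and TSP2KO 3 stood well below. The library labelled WT 3 was here within the range of WT 1 and WT 2. The log2 fold change was -0.67 (SE 0.37, 95% interval -1.53 to 0.19, limma adjusted p = 0.652), and -0.66 without that library. Macrophage markers, which were lower in TSP2KO as given above, averaged much the same in all 3 TSP2KO libraries, and their part in the Nr1h3 values was not tested. Per kilobase of exon, Nr1h2 exceeded Nr1h3 in every library, by 1.99 to 3.91 times in WT and 2.80 to 6.73 times in TSP2KO.

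The cholesterol exporters Abca1 and Abcg1 had lower means in TSP2KO without passing the test. Abca1 (chromosome 4, 53030787 to 53159895, minus strand), which loads cholesterol onto lipid-poor apolipoproteins, had 1852, 1609.5 and 668 normalised counts in WT (the last from the library labelled WT 3), against 452, 976 and 516 in TSP2KO. WT 1 and WT 2 stood above the other 4 libraries, and the library labelled WT 3 lay within the TSP2KO range. The log2 fold change was -1.04 (SE 0.45, limma adjusted p = 0.515). From the 5 libraries without that one it was -1.50 (SE 0.33, limma adjusted p = 0.0522).

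Abcg1 (chromosome 17, 31057675 to 31117988, plus strand), which passes cholesterol to mature lipoprotein particles, had 289, 384 and 276 normalised counts in WT and 126, 327 and 138 in TSP2KO. TSP2KO 2 lay among the WT libraries, and the other TSP2KO libraries lay below all of WT. The difference on the log2 scale was -0.81 (SE 0.38, limma adjusted p = 0.567), and -0.90 without the library labelled WT 3. Abcg1 lies 16.4 Mb from Thbs2 on the same chromosome.

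Apoe (chromosome 7, 19696109 to 19699188, minus strand), the apolipoprotein that carries exported cholesterol, showed no order by genotype. It had 857, 211 and 336 normalised counts in WT and 878, 1382 and 199 in TSP2KO, so TSP2KO held both the highest and the lowest library. The largest value was 6.93 times the smallest. On the log2 scale TSP2KO differed by 0.66 (SE 0.78, 95% interval -1.17 to 2.497, limma adjusted p = 0.835), and by 0.55 without the library labelled WT 3.

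**Figure D3:**
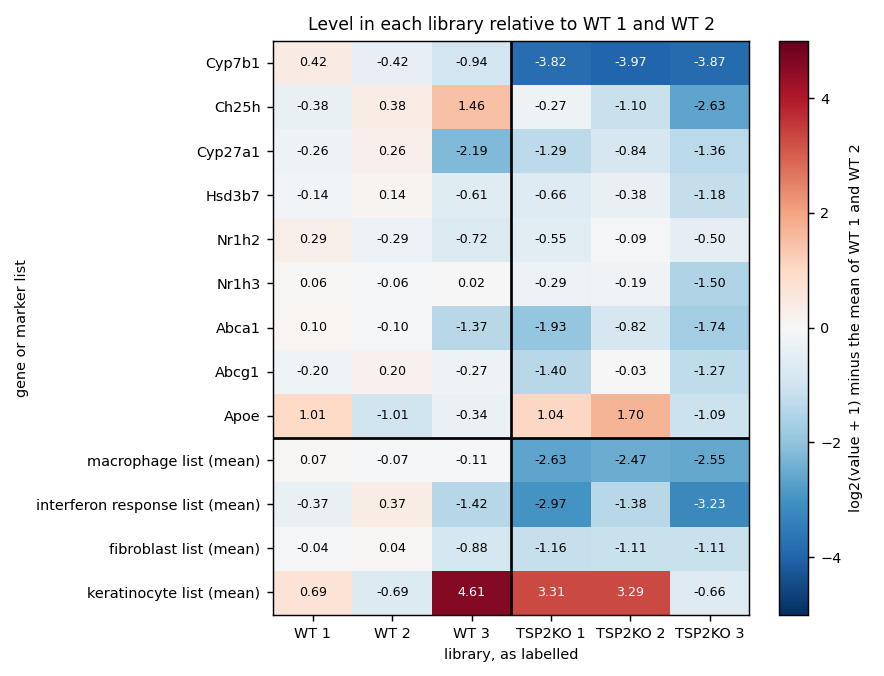
Level of each gene tested in each library as log2(value + 1) minus the mean of WT 1 and WT 2, above the mean of 4 marker and response lists on the same scale; red is higher and blue lower. Cyp7b1 is at -3.82 to -3.97 in TSP2KO and at -0.94 in the library labelled WT 3, whereas Abca1 is at -1.37 in that library, within its range in TSP2KO.

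Within TSP2KO, library 2 was most often the highest and library 3 most often the lowest for these genes, as a description without a test. TSP2KO 2 was the highest of its group in 7 of the 9 genes tested, where it was the highest in 32.5% of all genes tested, and TSP2KO 3 was the lowest in 5, against 33.9%. The library labelled WT 3 was the lowest of WT in 6 of the 9, against 42.4%.

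Ranked per kilobase of exon, Hsd3b7 was the most abundant of the 10 genes in WT, at 486 ± 123 normalised counts per kb (SD, n = 3), a value that is uncertain for the overlaps given above, and Cyp7b1 came next at 265 ± 129. In TSP2KO, Apoe came first at 383 ± 278, followed by Hsd3b7 at 336 ± 90.5, and Cyp7b1 ranked 9 of 10 at 20.3 ± 1.08, above Gpr183 at 1.61 ± 2.62. Between these, the WT order was Apoe, Nr1h2, Ch25h, Abca1, Nr1h3, Cyp27a1 and Abcg1, with Gpr183 last. The libraries of neighbours in the order overlapped in 8 of 9 pairs in WT, so only the step down to Gpr183 exceeded their spread between libraries. Compared within each WT library, Hsd3b7 also lay above Cyp7b1, and Cyp7b1 above Apoe. In TSP2KO they overlapped in 6 of 9 pairs, the exceptions being Hsd3b7 above Nr1h2, Nr1h2 above Abca1, and Cyp7b1 above Gpr183.

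**Figure D4:**
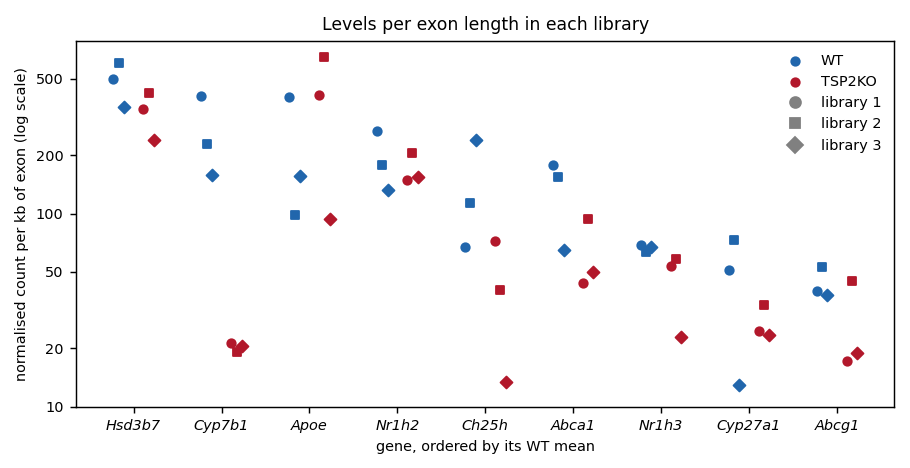
Normalised count per kilobase of exon (log scale) in each library for 9 genes, ordered by WT mean; blue is WT, red TSP2KO and the marker shape the library number, and Gpr183 is left out because 1 library is at 0. Cyp7b1 moves from 2 of 10 in WT to 9 of 10 in TSP2KO.

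No other LXR target gene passed the test with all 6 libraries. Of 30 listed, 25 were in the table and 21 were tested, 16 lower and 5 higher in mean, and their median log2 fold change was -0.11. By limma 0 passed, and limma-voom called 0. At an unadjusted p under 0.05 there were 2, Lpl and Lbp, both lower. Of all genes tested, 9.75% lay under that p (6.09% lower and 3.66% higher). Lpl, lipoprotein lipase, had 5334, 5538 and 5003 normalised counts in WT and 2167, 1622 and 1120 in TSP2KO, with no overlap and a log2 fold change of -1.74 (SE 0.25, limma adjusted p = 0.0974). Lpl passed once the library labelled WT 3 was set aside, with an adjusted p of 0.0230. Lbp, the lipopolysaccharide binding protein, had 344, 285 and 210.4 in WT and 51.1, 125 and 53.4 in TSP2KO (difference of -1.96 in log2, limma adjusted p = 0.164, and 0.0378 from the other 5 libraries). No other gene of the list passed without the library labelled WT 3, where 5.17% of all genes tested passed (2.75% lower and 2.43% higher). Lpl and Lbp were also the 2 whose groups did not overlap, where 14.2% of all genes tested did not (8.27% lower). Mertk, a receptor for apoptotic cells, and Abca7, a relative of Abca1, had log2 fold changes of -1.17 and -0.61 with overlapping groups.

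The 3 genes whose promoters hold the element shown above differed in their order over the libraries. Srebf1, the regulator of fatty acid synthesis, had 1901, 1263 and 689.6 normalised counts in WT and 651, 1639 and 678 in TSP2KO. Like Abca1, it was lower in the library labelled WT 3, TSP2KO 1 and TSP2KO 3 than in the other 3 libraries. Fasn, fatty acid synthase, had 2663, 2258 and 2953 in WT and 2422, 2787 and 2439.6 in TSP2KO, which is -0.04 on the log2 scale (SE 0.17, limma adjusted p = 0.968). Srebf1 had a log2 fold change of -0.40 (SE 0.47, limma adjusted p = 0.837). Srebf1 and Fasn were chosen for their promoters, after their values were seen.

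No partner or cofactor of LXR passed the test with all 6 libraries. All 18 listed were tested, 14 lower and 4 higher in mean, with a median of -0.13. By limma 0 passed, and limma-voom called 0. At an unadjusted p under 0.05 there was 1, where 9.75% of all genes tested lay under it. Ncoa3, Crebbp and Ncoa6, coactivators, had log2 fold changes of -0.37, -0.28 and -0.33.

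Other enzymes of oxysterol and bile acid metabolism gave 18 tested of 30, 10 lower and 8 higher, and their median log2 fold change was -0.15. By limma 0 passed, and limma-voom called 0. At an unadjusted p under 0.05 there was 1, Cyp39a1, where 9.75% of all genes tested lay under it. This enzyme, another oxysterol ring hydroxylase and the closest in role to Cyp7b1, had 477, 386 and 309 normalised counts in WT and 271, 249.5 and 206 in TSP2KO. Its log2 fold change was -0.68 (SE 0.23, limma adjusted p = 0.384). The groups did not overlap for 3 of the 18, all lower: Cyp39a1, Stard3 and Dhcr7. Of all genes tested, 14.2% had no overlap (8.27% lower and 5.9% higher). Amacr, a racemase of bile acid side chains, had a log2 fold change of -1.11 with overlapping groups, and Stard3, a sterol transfer protein, and Dhcr7, the last enzyme of cholesterol synthesis, had -0.44 and -0.45.

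Oxysterol sensors and transfer proteins outside the set showed 9 lower and 9 higher of 18 tested, with a median of -0.02. By limma 0 passed, 0 had an unadjusted p under 0.05 and limma-voom called 0. Osbpl5, Osbpl9, Rora and Osbpl6 had the smallest p, with log2 fold changes of 0.40, -0.37, -0.58 and 0.88. Rora, a nuclear receptor that binds sterols, had 959, 839.9 and 421 normalised counts in WT and 460, 467 and 475 in TSP2KO. For Rora the library labelled WT 3 lay below all 3 TSP2KO libraries, and without it the adjusted p was 0.0296. Osbpl3, a transfer protein named because it also passed without that library, then had a log2 fold change of 1.34 (limma adjusted p = 0.0292), against 0.67 with all 6 libraries (limma adjusted p = 0.752), where its groups overlapped.

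Sterol carriers and lipoprotein receptors included the 1 gene of these lists that passed, where 0.0612% of all genes tested did. Of 18 tested, 13 were lower and 5 higher in mean, and their median log2 fold change was -0.19. Of these, 4 lower and 1 higher had an unadjusted p under 0.05, where 6.09% of all genes tested were lower and 3.66% higher at that p. Msr1, a scavenger receptor of macrophages, fell, from 92.7, 73.7 and 117 normalised counts in WT to 7.47, 9.51 and 6.23 in TSP2KO (difference of -3.44 in log2, SE 0.35, limma adjusted p = 0.0456), and limma-voom did not call it. Macrophage markers were lower in the same libraries, and their part in the Msr1 value was not tested. Cav1, caveolin of the plasma membrane, had 9346, 9081 and 23707 in WT and 27511, 28470 and 37260 in TSP2KO, which is 1.29 on the log2 scale (SE 0.39, limma adjusted p = 0.329). Apod, a lipocalin, had 24764, 25117 and 6768 in WT and 6108, 7732 and 2497 in TSP2KO. Lipa, the lysosomal lipase that frees cholesterol, had 3426, 3971 and 1807 in WT and 1614, 1528 and 1829.6 in TSP2KO. For Apod and Lipa the library labelled WT 3 lay among the TSP2KO libraries. Without it Cav1, Apod and Lipa passed, with limma adjusted p of 0.0161, 0.0378 and 0.0206. With Msr1, 3 of the 18 then passed lower and 1 higher, against 2.75% and 2.43% of all genes tested.

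Genes of cholesterol synthesis, which sterols repress through SREBP2, gave no call either. All 24 were tested, 14 lower and 10 higher, and their median log2 fold change was -0.03. By limma 0 passed, 0 had an unadjusted p under 0.05 and limma-voom called 0. The 4 with the smallest p were Nsdhl, Dhcr7, Mvk and Insig1, at -0.38, -0.45, 0.39 and -0.38. Some of these genes also stand in the lists of enzymes, sensors or carriers.

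**Figure D5:**
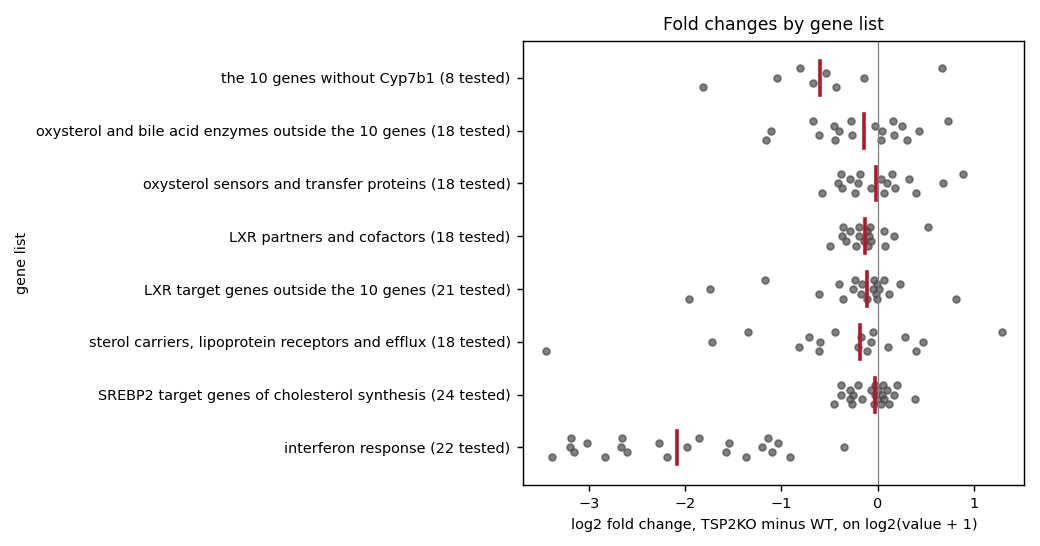
Log2 fold change of TSP2KO against WT for each tested gene of the 10, Cyp7b1 left out because its values chose the set, and of 7 pathway lists (points), with the list median (red bar). Medians lie between -0.19 and -0.02 for 6 lists, at -0.60 for the 8 genes and at -2.08 for the interferon response.

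Without the library labelled WT 3, the medians were -0.28 for the enzymes, -0.19 for the sensors, -0.15 for the partners, -0.15 for the LXR targets, -0.08 for the sterol carriers, 0.04 for the SREBP2 targets and -2.60 for the interferon response.

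The 5 genes whose pattern over the 6 libraries was most like that of Cyp7b1 were Foxp1, Bnip3, AC160336.1, Hs3st1 and Akr1b3, by Pearson correlation of log2(value + 1), with r from 0.988 to 0.992. The correlations and the values below are a description, with no test, over 6 libraries that share the contrast that chose Cyp7b1. Foxp1, a transcription factor, had 288, 229 and 235 normalised counts in WT and 132, 118 and 126 in TSP2KO. Hs3st1, a heparan sulfate sulfotransferase, shared the order of Cyp7b1 within WT, with 156, 86.7 and 57.1, and had 15.5, 16.2 and 11.6 in TSP2KO. Bnip3, a mitochondrial protein, and Akr1b3, aldose reductase, had log2 fold changes of -1.43 and -0.60.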

How the data were processed

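RNA of 6 libraries (3 WT, 3 TSP2KO) was sequenced. The values are a normalised signal per gene, deposited by the authors as normalised counts. Per the submitters' processing notes, STAR, Partek and DESeq2 took part and the build was mm10. How reads were counted, whether by strand and with which annotation, is not given in the sources used here. Each column was assigned to its sample through the genotype and number in its name. Between 68.6% and 73.9% of values above 0 were whole multiples of 1 read within 0.02 of a read, so reads were not recovered for a count test, and read numbers are given only for single low values that came out whole.

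Genes with a mean of at least 10 (14707 of 23407) were tested on log2(value + 1) with limma 3.58.1 (R 4.3.3) with a mean-variance trend and Benjamini-Hochberg adjustment at 0.05. Fold changes are on that scale and understate the change of low genes. The script was tested on simulated data. Fits that left out a library kept the same genes. Other settings tried were the pseudocount, the filter, 2 rescalings, no trend, limma-voom, a replicate block and leaving out each library. The block was not used in the tests given, since the labels do not say whether same-numbered libraries were prepared together.

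Members and lists were chosen with earlier results of these data known. Named genes were the members, Thbs2, up to 4 tested genes per pathway list with the smallest p, and the 5 genes with a mean of at least 50 most correlated with Cyp7b1. One gene that this rule names is not reported here. Lists covered oxysterol enzymes, sensors, LXR partners and targets, sterol carriers, SREBP2 targets, interferon response, and markers of macrophages, fibroblasts, keratinocytes, endothelial cells, adipocytes, lymphocytes, dendritic cells and melanocytes. Coordinates and exon lengths are from GENCODE M21 (mm10), where 96.4% of genes had the deposited coordinates once 1 base was taken off the end, and promoters are from RefSeq (GRCm38.p6).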

Additional observations from a re-analysis of the deposited data

How the results depend on the processing

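The count of genes called lower, 9 with all libraries, was 14 with a pseudocount of 10, 15 in limma without the trend, and 0 with a pseudocount of 0.1, without a filter on low values, with a mean of at least 100, after rescaling to the same total and by limma-voom. With libraries left out in turn it ranged from 0 to 404, and the count called higher, 0 with all libraries, ranged from 0 to 357. The upper values are those without the library labelled WT 3. None of the 10 genes other than Cyp7b1 lay past the threshold in the fit of all libraries. The values of Cyp7b1 chose the set, so its place against the threshold is a description of the settings and no test: the count of the 10 genes past it was 1 with all libraries, against 0 with a pseudocount of 0.1, no filter, a mean of at least 100, the same total and limma-voom, and 0 to 1 with libraries left out, 1 being without the library labelled WT 3. With the replicate block, 0 of the 10 genes and 0 lower genes passed. Same-numbered libraries had deviations correlated at -0.42, -0.25 and -0.39. The labels do not say whether they were prepared together. These correlations cannot decide it, since deviations within a group of 3 sum to 0 and 1 outlying library weighs on them. The Cyp7b1 log2 fold change stayed between -3.88 and -3.20 over 15 alternatives. With libraries left out, the log2 fold change of Cyp27a1 ranged from -1.17 to 0.058 (without WT 2) and that of Nr1h2 from -0.38 to 0.13 (without WT 1). The median of the sterol carriers, -0.19, ranged from -0.52 (without TSP2KO 2) to -0.051. The cause of these changes was not tested. Depth limits Gpr183 and the lowest Ch25h and Cyp27a1 values.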
